A study of Mus musculus with 10 samples.

Results

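Insulin, AMPK and adiponectin receptor signalling was examined in mouse liver through 36 genes, chosen by name as the receptors, adaptors, kinases, phosphatases and transcriptional effectors of these pathways. They fall into a receptor arm of 12 genes, a PI3K-AKT arm of 12, an mTOR arm of 5 and an AMPK arm of 7. The arrays carried probes for 35 of the 36, under the current symbol or an older one (Foxo3 as Foxo3a), and 34 were measured well enough to be tested among 15808 genes. Total RNA came from livers of mice aged 1 year on a C57BL/6 background, 5 samples labelled wild type (WT1 to WT5) and 5 labelled knockout (KO1 to KO5). The knockout lacks TAK1/TR4, a nuclear orphan receptor encoded by Nr2c2, and is unrelated to the kinase that shares the name TAK1. Each sample was labelled with Cy3 and hybridised to an Agilent mouse expression array of its own. The labels give neither the sex or diet of the mice nor the design of the deleted allele. Whether every array came from its own mouse is not stated in them, so the p-values cover only the spread among these samples, which may be technical.

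In the liver, insulin binds its receptor tyrosine kinase and recruits insulin receptor substrates, which activate phosphoinositide 3-kinase and then the kinase AKT. AKT restrains glycogen synthase kinase 3 and the FOXO transcription factors and relieves the brake that the TSC complex places on mTOR, so that glycogen and fat synthesis rise and glucose output falls. AMPK, a sensor of low cellular energy that is switched on by the kinase LKB1, works against fat synthesis, and adiponectin acts through 2 receptors, of which ADIPOR1 is linked mainly to AMPK and ADIPOR2 mainly to PPAR alpha. Most of this signalling runs through phosphorylation, which RNA levels do not measure.

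Some further probes of the genes described below, not those used in the gene tests, read across an intron, since their mm7 coordinates in the deposited files lie further apart than the 60 bases of the probe, and those printed here read as coding sequence. They are shown because they measured the transcripts at another place. Capitals mark the stretch in which the end of the Adipor1 probe best matched the start of the Adipor2 probe without gaps. They also mark the codons of the DFG motif of the kinase domain in Gsk3b and the start codon in Akt1, while the Pik3r1 probe has none.
Adipor2 probe: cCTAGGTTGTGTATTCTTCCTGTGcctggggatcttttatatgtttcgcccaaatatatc
Adipor1 probe: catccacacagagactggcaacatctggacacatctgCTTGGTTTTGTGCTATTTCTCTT
Gsk3b probe: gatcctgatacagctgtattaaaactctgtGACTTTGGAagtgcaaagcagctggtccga
Akt1 probe: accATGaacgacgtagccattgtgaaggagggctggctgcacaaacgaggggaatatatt
Pik3r1 probe: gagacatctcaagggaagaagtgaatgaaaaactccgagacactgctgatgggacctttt
These lie at chr6:119384625-119386974, chr1:134314667-134315712, chr16:37894702-37898347, chr12:110187243-110196509 and chr13:98797997-98799039 (mm7). Without gaps, 15 of the 23 aligned bases of the adiponectin receptor probes (65.2%) are identical, in an alignment that was chosen for its matches.

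Levels below are log2 signals relative to the 75th percentile of the array, and differences are knockout minus wild type with the standard error of the fit (limma). A gene is said to have changed if its p, with Benjamini-Hochberg adjustment across every gene tested, is under 0.05. The 75th percentile of the signal was 950.3 to 1344 on the 10 arrays, and 51.0% to 62.4% of probes were well above background. Of the 3 probes at the Nr2c2 locus (chromosome 6), a cDNA probe exceeded background on 5 arrays of wild type and on 0 of knockout (-4.26 ± 0.30, adjusted p over probes = 0.00021), and the 2 probes named Nr2c2 were above it on all 10 arrays, with differences of 0.36 ± 0.13 and 0.44 ± 0.11 (adjusted p over probes = 0.144 and 0.043). KO2 stood apart: it gave the highest or lowest value of the 10 arrays for 43.0% of all genes and for 19 of the 34 members (55.9%), and its mean hepatocyte marker level was 5.95, against 6.41 to 6.52 on the other 9 arrays. The low mean did not hold for all 10 hepatocyte markers. Without KO2, the difference moved from -0.56 to -0.13 for Ass1 and from -0.06 to 0.22 for Cps1. For Hnf4a it moved the other way, from -0.04 to -0.12, and for Cyp2e1 from -0.12 to -0.16. Only slide 2 held both genotypes, with WT5, KO1, KO2 and KO3. Slide 1 carried the other 4 wild-type arrays, while KO5 and KO4 were on slides 3 and 4.

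Of the 34 tested members, Adipor2, the second adiponectin receptor, and Gsk3b, a glycogen synthase kinase, were lower in the knockout, and 0 were higher. That is 5.88% of the tested members, near the 5.91% of all genes that changed (935 of 15808), of which 3.48% were lower and 2.44% higher. The median difference of the members was 0.00, against 0.01 over all genes. An unadjusted p under 0.05 was reached by 7 members (20.6%), against 23.7% of all genes, and the 2 groups of arrays did not overlap for 3 members (8.82%), against 9.62%. Of these 3, Akt1 was higher on all knockout arrays, as were 4.19% of all genes, and Adipor2 and Gsk3b lower, as were 5.43%. The count of 2 changed members was 0 without WT2 or WT5 and with slide as a fixed block, where 5, 4 and 2 members had an unadjusted p under 0.05. Of all 15808 genes, 2873, 3212 and 1564 did so in these fits. The count of changed members was 1 without WT1 or WT4 and 4 without KO1 or KO2. Over all genes 385 were higher and 550 lower, and this balance depended on the scaling, being 314 and 156 without scaling and 153 and 558 with median scaling. The probes used were well above background on all 10 arrays for each of the 34. For 28 of the 32 members that did not pass, the 95% interval of the difference lay within 1.5-fold either way in this fit, which ignores slide. The exceptions were Akt1, Pik3r1, Irs1 and Igf1r.

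**Figure D1:**
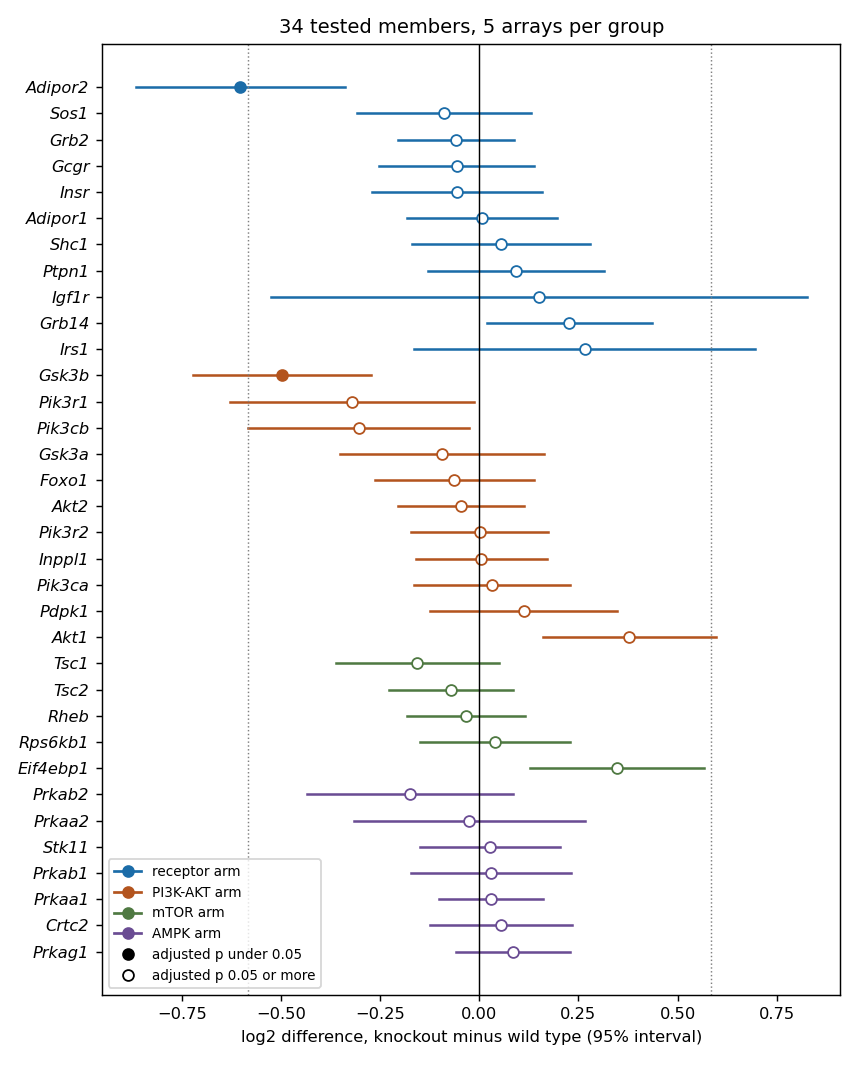
Log2 difference (knockout minus wild type) of each tested member with its 95% interval from the limma fit of 5 arrays per group, coloured by arm; filled points have an adjusted p under 0.05 and dotted lines mark a 1.5-fold difference. Adipor2 at -0.60 and Gsk3b at -0.50 are the filled points, and the AMPK arm lies between -0.17 and 0.09.

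The receptor arm had 11 tested genes, of which 1 changed. Adipor2 was read at 7.74, 7.87, 7.70, 7.65 and 7.88 on WT1 to WT5 and at 7.22, 6.79, 7.28, 7.08 and 7.46 on KO1 to KO5. All 5 knockout arrays were below all wild-type arrays, and KO2 was the lowest. Adipor2 fell 1.52-fold (-0.60 ± 0.12, limma adjusted p = 0.021, exact permutation p = 0.0079, the smallest that 5 against 5 arrays can give). In whole liver RNA, fewer cells of a type and less RNA per cell cannot be told apart. The difference was -0.51 without KO2, with an adjusted p of 0.015. Its call was lost without WT2 or WT5 (adjusted p = 0.065 and 0.052). With slide as a fixed block, which rests on slide 2, the difference was -0.78, and the call was lost (adjusted p = 0.290).

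Adipor2 had 3 probes, and the difference was negative on all 3. The probe used above lies at chr6:119378346-119378405 (mm7), on the same chromosome as Nr2c2, whose probes lie between chr6:92187254 and chr6:92245066. Whether the shared chromosome bears on the Adipor2 difference was not tested. The intron-spanning probe printed above differed by -0.68 ± 0.18 (adjusted p over probes = 0.058), and a probe matching a cDNA, at chr6:119383840-119383899, by -1.47 ± 0.37 (adjusted p over probes = 0.051). The cDNA probe exceeded background on all 5 arrays of wild type and on 4 of knockout.

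Adipor1, the other adiponectin receptor, was read at 2.05, 2.28, 2.16, 2.23 and 2.03 in wild type and at 2.25, 1.92, 2.24, 2.21 and 2.16 in knockout. The groups overlapped, and KO2 was the lowest of the 10 arrays. The difference was 0.01 ± 0.09 (adjusted p = 0.971), with a 95% interval of -0.18 to 0.20, and its sign turned negative under some settings. Its 3 probes differed by 0.01, 0.04 and 0.06. Whether the genotype affected the 2 receptors differently was not tested.

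Insr, the insulin receptor itself, was read at 0.77, 0.81, 0.95, 0.96 and 0.90 in wild type and at 0.85, 0.64, 1.10, 0.87 and 0.65 in knockout. The knockout values spread to both sides of the wild-type values. The difference was -0.06 ± 0.10 (adjusted p = 0.764), with an interval of -0.27 to 0.16. This probe was listed under an older clone name of Insr, and a second Insr probe had the opposite sign (0.15 ± 0.18), so Insr is given no direction. Gcgr, the glucagon receptor, was read at 6.65, 6.59, 6.53, 6.55 and 6.57 in wild type and at 6.39, 6.29, 6.67, 6.68 and 6.56 in knockout. Here too the groups overlapped, with the wild-type values close together. The difference was -0.06 ± 0.09 (adjusted p = 0.735), with an interval of -0.25 to 0.14, and its sign turned positive with quantile normalisation.

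The rest of the receptor arm did not pass the test. Igf1r, the receptor for insulin-like growth factor 1, differed by 0.15 ± 0.30 and had the widest interval of the members, -0.53 to 0.83. Its wild-type values ran from -3.56 on WT4 to -1.90 on WT3. This probe was listed under an older clone name of Igf1r, and the other kept probe, named Igf1r, differed by 0.30 ± 0.17 (adjusted p over probes = 0.325). Irs1, a substrate that the insulin receptor phosphorylates, differed by 0.27 ± 0.19 (-0.16 to 0.70), and Irs2, the other main substrate in liver, had no probe assigned to it. Grb14, an adaptor that inhibits the insulin receptor, differed by 0.23 ± 0.09 (adjusted p = 0.179), and passed without KO2 (0.30, adjusted p = 0.033). Ptpn1, the phosphatase PTP1B that switches the insulin receptor off, differed by 0.09 ± 0.10. Of the proteins that link the receptors to RAS, Grb2 differed by -0.06 ± 0.07, Shc1 by 0.05 ± 0.10 and Sos1 by -0.09 ± 0.10.

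**Figure D2:**
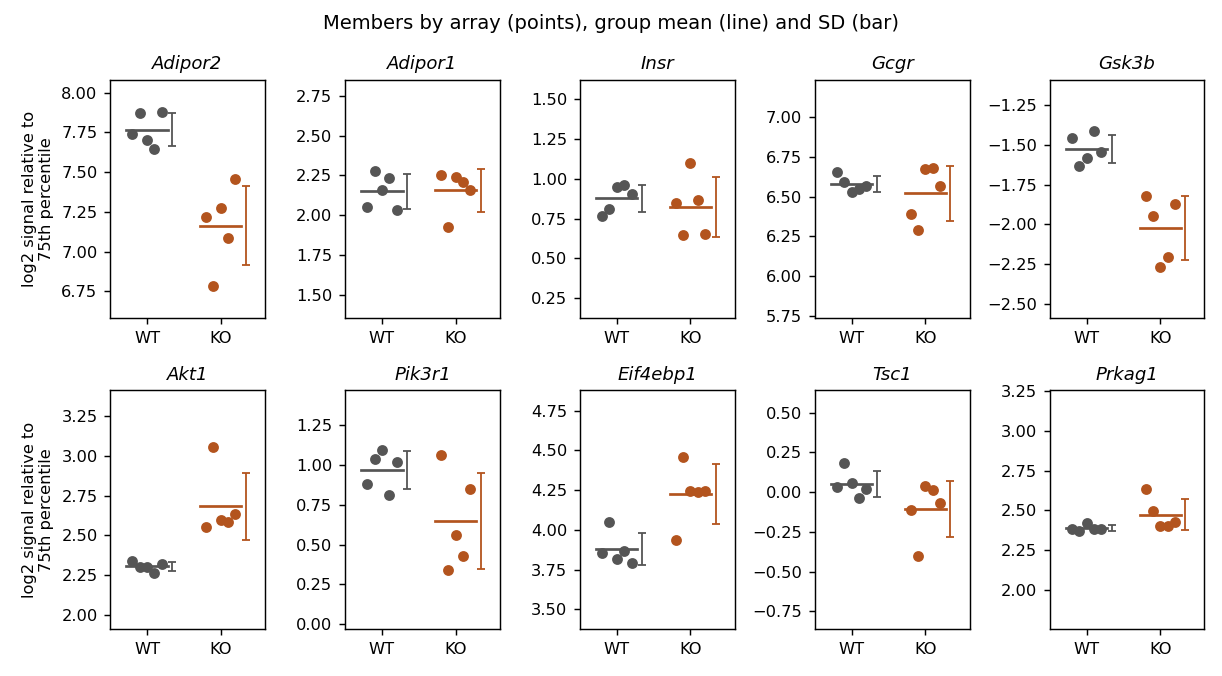
Log2 signal relative to the 75th percentile of each array, for 10 members; points are the 5 arrays of each group in replicate order, the line is the group mean and the bar beside it the SD, and every panel spans the same range of log2 units. Adipor2, Gsk3b and Akt1 show no overlap between groups, and KO2 is the lowest Adipor2 array and the highest Akt1 array.

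The PI3K-AKT arm had 11 tested genes, of which 1 changed. Gsk3b encodes a kinase that phosphorylates glycogen synthase and is inhibited by AKT. It was read at -1.46, -1.63, -1.58, -1.41 and -1.54 in wild type and at -1.82, -1.95, -2.27, -2.20 and -1.87 in knockout. All 5 knockout arrays were below all wild-type arrays. Gsk3b fell 1.41-fold (-0.50 ± 0.10, adjusted p = 0.024, exact permutation p = 0.0079). Its call was lost without WT1, WT2, WT4 or WT5 (highest adjusted p = 0.060). With slide as a fixed block it was -0.47 and not called (adjusted p = 0.497).

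The Gsk3b result rested on 1 of its 2 probes. The probe used lies at chr16:37950232-37950291 (mm7), and the intron-spanning probe printed above differed by only -0.08 ± 0.16 (adjusted p over probes = 0.810). The mean of both probes differed by -0.29 and was not called (adjusted p = 0.119). What sets the 2 probes apart was not tested. Gsk3a, the sister kinase, differed by -0.09 ± 0.12.

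Akt1, the AKT kinase expressed in most tissues, narrowly missed the threshold and is described because of its values. It was read at 2.34, 2.30, 2.30, 2.27 and 2.32 in wild type and at 2.55, 3.06, 2.59, 2.58 and 2.63 in knockout. All 5 knockout arrays were above all wild-type arrays, with KO2 far above the rest. The difference was 0.38 ± 0.10 (adjusted p = 0.052, exact permutation p = 0.0079), with an interval of 0.16 to 0.60. Akt1 passed without KO1 (adjusted p = 0.047) and without KO2 (0.29, adjusted p = 0.016), but not without any other array (highest adjusted p = 0.119). It was 0.28 with median scaling (adjusted p = 0.201) and 0.42 with slide as a fixed block (adjusted p = 0.563). Of 26 alternative settings, 6 called it. The probe is printed 10 times on the array, and these spots were averaged. The Akt1 probe over the start codon, which exceeded background on 5 arrays of wild type and 4 of knockout, differed by 0.19 ± 0.22. Akt2, the AKT kinase most tied to insulin action, differed by -0.05 ± 0.07 and its second probe by -0.07 ± 0.08.

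Pik3r1 encodes the regulatory subunits that hold phosphoinositide 3-kinase at the receptor complex, and was singled out after its values were seen. It was read at 0.88, 1.04, 1.10, 0.81 and 1.02 in wild type and at 1.06, 0.34, 0.56, 0.43 and 0.85 in knockout. KO1 and KO5 lay among the wild-type arrays, and KO2 was the lowest. The difference was -0.32 ± 0.14 (adjusted p = 0.196). All 4 Pik3r1 probes had negative differences, from -0.65 to -0.32, and 0 passed over probes (lowest adjusted p = 0.076). The catalytic subunit gene Pik3cb differed by -0.30 ± 0.13 (adjusted p = 0.179), and KO2 was again the lowest. Its relative Pik3ca differed by 0.03 ± 0.09 and the regulatory subunit gene Pik3r2 by 0.00 ± 0.08.

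Pdpk1, the kinase PDK1 that activates AKT, differed by 0.11 ± 0.11, and its 3 probes by 0.08 to 0.46. Inppl1, the lipid phosphatase SHIP2 that removes the PI3K product, differed by 0.01 ± 0.07. Foxo1, which drives gluconeogenic genes when insulin is low, differed by -0.06 ± 0.09, and by -0.06 ± 0.10 on its second probe. Foxo3, its relative, was not tested: 1 of its probes exceeded background on 0 of 10 arrays and the other on 3 of wild type and 2 of knockout.

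**Figure D3:**
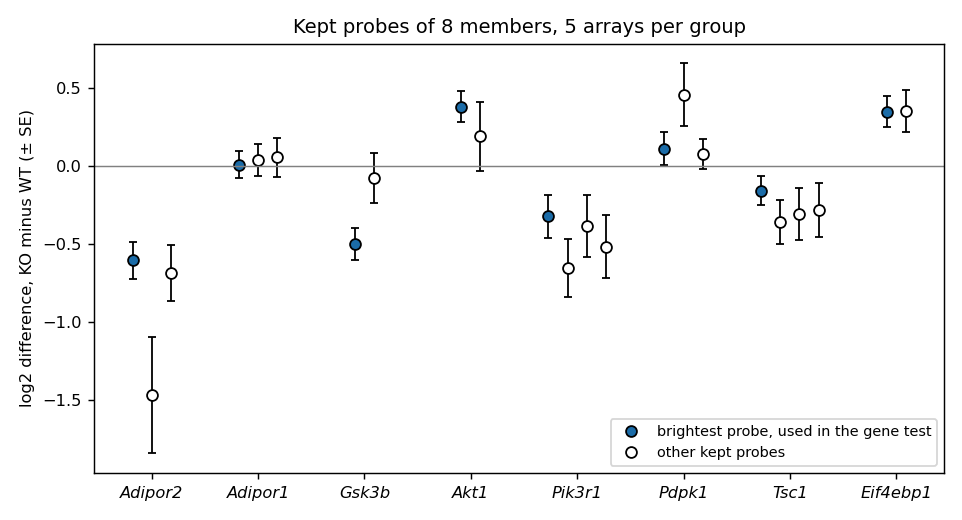
Log2 difference (knockout minus wild type, with its SE from the limma fit over probes, 5 arrays per group) for each kept probe of 8 members; filled points are the brightest probe, used in the gene test. The 3 Adipor2 probes lie from -1.47 to -0.60, while the Gsk3b probes lie at -0.50 and -0.08.

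In the mTOR arm 0 of 5 genes changed. Eif4ebp1 encodes a repressor of translation that mTOR switches off. It was read at 3.86, 4.05, 3.82, 3.87 and 3.79 in wild type and at 3.94, 4.46, 4.25, 4.24 and 4.24 in knockout. Every knockout array but KO1 was above all wild-type arrays, KO1 lying below WT2 only. The difference was 0.35 ± 0.10 (adjusted p = 0.071, exact permutation p = 0.016), and its second probe gave 0.35 ± 0.13. Eif4ebp1 passed without KO1 (0.42, adjusted p = 0.023), but not without any other array (highest adjusted p = 0.142). It was 0.24 with median scaling (adjusted p = 0.221) and 0.42 with slide as a fixed block (adjusted p = 0.566). Of 26 alternative settings, 3 called it. Tsc1, a subunit of the complex that inhibits mTOR through RHEB, was read at 0.03, 0.18, 0.06, -0.04 and 0.02 in wild type and at -0.11, -0.40, 0.04, 0.01 and -0.07 in knockout. The groups overlapped, and KO2 was the lowest. Tsc1 differed by -0.16 ± 0.09 (adjusted p = 0.333), and its 4 probes by -0.36 to -0.16. Its partner Tsc2 differed by -0.07 ± 0.07, the GTPase gene Rheb by -0.03 ± 0.07, and Rps6kb1, the S6 kinase that mTOR activates, by 0.04 ± 0.08.

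In the AMPK arm 0 of 7 genes changed, and 0 reached an unadjusted p under 0.05 with limma. Prkab2, a scaffold subunit, was read at -1.46, -1.57, -1.78, -1.76 and -1.69 in wild type and at -1.53, -1.75, -2.07, -1.74 and -2.04 in knockout. Only KO3 and KO5 lay below all wild-type arrays. The difference was -0.17 ± 0.12 (adjusted p = 0.397). Prkag1, the subunit that senses AMP, was read at 2.38, 2.37, 2.42, 2.38 and 2.38 in wild type and at 2.64, 2.49, 2.41, 2.40 and 2.43 in knockout. The knockout values began among the wild-type values and lay above all of them on KO1, KO2 and, narrowly, KO5. The difference was 0.09 ± 0.06 (adjusted p = 0.455, exact permutation p = 0.024). The catalytic subunit genes Prkaa1 and Prkaa2 differed by 0.03 ± 0.06 and -0.03 ± 0.13, and the scaffold subunit gene Prkab1 by 0.03 ± 0.09. Stk11, the upstream kinase LKB1, differed by 0.03 ± 0.08, and Crtc2, a coactivator of gluconeogenic genes that AMPK-related kinases keep out of the nucleus, by 0.05 ± 0.08. In the fit by genotype alone, the interval of each of these 7 differences excluded a 1.5-fold change. With slide as a fixed block, standard errors were larger, at 0.28 for Prkaa2 and 0.23 for Prkab2, against 0.13 and 0.12. Intervals were not computed for that fit, so the exclusion is not shown there.

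The knockout arrays varied more than the wild-type arrays for 29 of the 34 members (85.3%), as for 78.5% of all genes. Of 19 members with more than 1 kept probe, 18 had the same sign on all of them, Insr being the exception. Among the marker lists of other cells, the mean level of 10 endothelial markers was -0.23 to 0.19 in wild type and 0.21 to 0.85 in knockout, with 9 of 10 positive differences and 1 that passed. That of 3 adipocyte-associated genes tested (Cfd, Plin4 and Lipe) was 1.08 to 1.44 on WT1 to WT4 and -2.32 to -0.41 in knockout. On WT5 Lipe, the dimmest of them, had no value, and the mean of Cfd and Plin4 alone was 3.90. Of the 3, 2 passed (Cfd and Plin4), while the defining fat cell genes Adipoq and Lep were above background on 0 of 10 arrays. The mean level of 9 macrophage markers overlapped between groups, at 0.91 to 2.03 and 0.87 to 2.17, with 6 of 9 positive differences and 1 that passed (Cd163, 0.91 ± 0.22, adjusted p = 0.043). The part of these cell types in the Adipor2 and Gsk3b results was not tested.

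**Figure D4:**
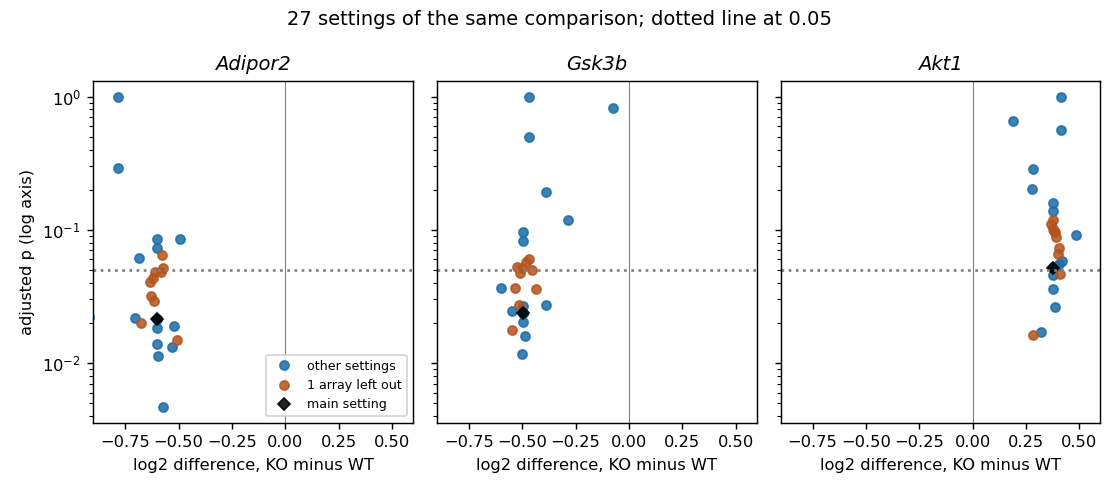
Adjusted p (log axis) against the log2 difference (knockout minus wild type) of Adipor2, Gsk3b and Akt1 under the main setting, 16 other settings and the 10 fits that each leave out 1 array; the dotted line is at 0.05. The 3 genes kept their sign under each of these, but adjusted p lay on both sides of the line for all of them.

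The 250 bases before the annotated start of Adipor2, Adipor1, Gsk3b and Akt1 are shown in RefSeq's sequence of build GRCm38.p6, since these genes include those with the clearest differences and the receptor beside Adipor2 that had none that passed. They were searched on both strands for the forkhead motif GTAAACA, which FOXO proteins can bind, for AGGTCA, the half-site of many nuclear receptors, and for AGGTCANAGGTCA, the direct repeat that TR4 can bind and that contains 2 half-sites. Capitals mark matches.
Adipor2 upstream: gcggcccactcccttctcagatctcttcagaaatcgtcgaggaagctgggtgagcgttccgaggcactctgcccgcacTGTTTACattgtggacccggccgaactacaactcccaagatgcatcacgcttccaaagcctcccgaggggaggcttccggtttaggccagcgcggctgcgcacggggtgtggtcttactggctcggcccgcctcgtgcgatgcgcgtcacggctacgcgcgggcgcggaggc
Adipor1 upstream: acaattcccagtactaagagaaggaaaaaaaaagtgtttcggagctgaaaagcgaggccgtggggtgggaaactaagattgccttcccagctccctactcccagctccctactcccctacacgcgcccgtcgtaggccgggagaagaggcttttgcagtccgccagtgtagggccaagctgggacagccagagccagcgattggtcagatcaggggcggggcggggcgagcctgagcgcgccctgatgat
Gsk3b upstream: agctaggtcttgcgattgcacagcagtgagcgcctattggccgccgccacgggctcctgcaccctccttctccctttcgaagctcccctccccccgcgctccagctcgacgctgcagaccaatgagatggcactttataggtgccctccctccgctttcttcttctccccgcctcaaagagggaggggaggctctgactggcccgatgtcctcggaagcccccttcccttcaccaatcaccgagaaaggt
Akt1 upstream: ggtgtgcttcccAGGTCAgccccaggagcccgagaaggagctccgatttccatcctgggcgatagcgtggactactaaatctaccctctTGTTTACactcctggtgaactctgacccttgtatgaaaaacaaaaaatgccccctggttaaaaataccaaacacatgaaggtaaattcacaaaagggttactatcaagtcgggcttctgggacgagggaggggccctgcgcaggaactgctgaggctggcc
Printed 5′ to 3′ along each gene's own strand, they lie at chr6:119388735-119388984 (minus strand), chr1:134415128-134415377 (plus strand), chr16:38088751-38089000 (plus strand) and chr12:112674885-112675134 (minus strand). Adipor1 and Akt1 have 2 annotated windows each, of which the 1 with the most matches is printed. The other Akt1 window held none of the motifs, so the Akt1 matches below come with that choice. Neither Adipor1 window held any. GTAAACA was matched on the opposite strand 172 to 166 bases before the start of Adipor2 and 161 to 155 bases before that of Akt1, and AGGTCA 238 to 233 bases before that of Akt1. Among the 43 windows of 33 members in the table, 2 held GTAAACA (4.65%), against 3.17% of all 32851 windows, and 4 held AGGTCA (9.30%), against 14.0%. The direct repeat was in 0 of the 43 and in 0.0335% of all windows. A forkhead match stood before a gene that fell and before a gene with a positive difference. The matches describe letters in these windows only.

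Beyond the 36 genes, a list of 144 further genes of the same pathways was read in the same fit. Of 131 tested, 4 were higher and 2 lower (4.58%), again near the 5.91% of all genes. Among 34 tested genes near the receptors 0 passed with limma, with 7 at an unadjusted p under 0.05, which 23.7% of all genes reached.

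Of 30 tested genes around PI3K and AKT 3 changed (10%, against 5.91% of all genes). Sgk2, a kinase related to AKT, fell, with levels of 4.55 to 4.88 in wild type and 3.51 to 4.28 in knockout (-0.77 ± 0.14, adjusted p = 0.016), and lost its call without WT2 (adjusted p = 0.0503). Trib2, a pseudokinase of the family that binds AKT, rose, with levels of -3.26 to -3.01 in wild type and -2.91 to -2.44 in knockout (0.49 ± 0.10, adjusted p = 0.026). Prkcz, an atypical protein kinase C that PDK1 activates, rose, with levels of 2.35 to 2.61 in wild type and 2.65 to 3.22 in knockout (0.46 ± 0.10, adjusted p = 0.035). The second brightest Prkcz probe differed by 0.23 ± 0.15 and was not called (adjusted p = 0.392), nor was the mean of the Prkcz probes (0.38, adjusted p = 0.051). The arrays of the 2 genotypes did not overlap for these 3 genes, as for 9.62% of all genes. Since the 3 were picked by their p in the same data, this adds no support. Leaving out WT1, WT2, WT3, WT4 or KO4 ended the call of Trib2 (highest adjusted p = 0.064), and leaving out any array but KO1 or KO2 ended that of Prkcz (highest adjusted p = 0.084).

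Of 41 tested genes around mTOR 2 changed (4.88%, against 5.91% of all genes), each higher in the knockout. Lamtor3, a subunit of the complex that brings mTOR to the lysosome, rose, with levels of 3.41 to 3.61 in wild type and 3.69 to 3.85 in knockout (0.30 ± 0.06, adjusted p = 0.027). Prr5l, which binds mTOR complex 2, rose, with levels of -1.15 to -0.72 in wild type and -0.66 to 0.00 in knockout (0.60 ± 0.14, adjusted p = 0.036). Lamtor3 was not called when WT1, WT3, WT4, WT5, KO4 or KO5 was left out (highest adjusted p = 0.066), nor Prr5l when any array but KO1 was (highest adjusted p = 0.092). With median scaling of the arrays Trib2, Prkcz, Lamtor3 and Prr5l were not called. Of 28 tested genes around AMPK 1 changed (3.57%). This was Cidea, a lipid droplet protein reported to bind an AMPK subunit in mouse brown fat, with a difference of -8.78 ± 0.74 (adjusted p = 0.00055). Cidea, at 5.94 to 7.48 in wild type and -3.89 to -0.04 in knockout, stayed called when each array in turn was left out. Within slide 2 the differences were -0.92 for Sgk2, 0.43 for Trib2, 0.36 for Prkcz, 0.37 for Lamtor3, 0.91 for Prr5l and -8.29 for Cidea. With slide as a fixed block only Cidea of these 6 was called (adjusted p = 0.035).

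Of 8 tested transcripts known to respond to insulin, FOXO1 or stress in liver, 1 changed. Srebf1, the lipogenic factor that insulin induces, fell, with levels of 6.87 to 7.16 in wild type and 4.62 to 6.50 in knockout, with KO2 the lowest (-1.21 ± 0.28, adjusted p = 0.037). It was -0.93 without KO2 (adjusted p = 0.0074) and -1.23 with slide as a fixed block, where it was not called (adjusted p = 0.556). Leaving out any array other than KO1 or KO2 ended its call (highest adjusted p = 0.096). Pck1, the gluconeogenic enzyme that insulin represses, differed by 0.46 ± 0.13 (adjusted p = 0.059), with all 5 knockout arrays, at 7.25 to 7.88, above the wild-type arrays, at 6.83 to 7.19. Pck1 was named after its values were seen.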

How the data were processed

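Total RNA of 5 wild-type and 5 knockout livers was measured on 10 one-colour arrays. Per the file headers, the authors used Feature Extraction 9.5.1.1 from Agilent (9.5 in the submitters' processing notes), which subtracted local background and removed spatial trends. The deposited intensity values had no normalisation between arrays. Other deposited columns hold 0 or 1 flags for background, outlier and saturated spots. The deposited series table held the same intensities, with a largest difference of 0 and column medians of 80.0 to 107.6.

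Here log2 of the deposited intensity was taken without a pseudocount, minus the 75th percentile over non-control spots of the array. Outlier spots were left out and spots of a probe averaged. Of 41174 probes, a probe was kept if 4 or more of the 5 arrays of a group read it well above background. Symbols were updated through a RefSeq table (22951 probes by accession, 6659 by current and 3109 by older symbol). Each gene was read by its brightest kept probe. Genotype was tested with lmFit and eBayes (limma 3.58.1, R 4.3.3), two-sided, adjusted over 15808 genes. Exact permutation tests were two-sided. The steps were tested on simulated data.

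The members and lists were chosen with earlier results of these data known. Given in full are members that changed, the 2 with the smallest p in an arm with none, and Insr, Adipor1, Adipor2 and Gcgr. Akt1 and Pik3r1 were added after their values were seen. Of the other lists, up to 4 changed genes or the 1 with the smallest p were chosen, and some results are not reported here. The number of arrays limits the precision. Probe coordinates are those of the files (mm7).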

Additional observations from a re-analysis of the deposited data

Results flagged for a closer look

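Within a group of 5 arrays, 5 of the 68 groups examined (34 members in 2 groups) held 1 array far from the other 4 by Dixon's test, and chance flags about 1 in 20. On KO2, Akt1 stood at 3.06, against 2.55 to 2.63 on the other knockout arrays, and Adipor1 at 1.92, against 2.16 to 2.25. On WT2, Irs1 stood at 1.78, against 2.41 to 2.60 on the other wild-type arrays, and Pdpk1 at 1.13, against 1.58 to 1.64. Prkag1 stood at 2.42 on WT3, against 2.37 to 2.38, a narrow range.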

How the results depend on the processing

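Of the 34 tested members, 2 changed under the main setting, and 10 of 26 alternatives gave a count within 1.5 times of that. The count was 0 without scaling between arrays, with no filter on dim probes, with each gene's second brightest probe, with slide as a fixed block, within slide 2 alone and with the replicate number as a block. At an unadjusted p under 0.05 these settings gave 5, 5, 6, 2, 1 and 4 members. Over all genes they gave 3127, 3553, 3592, 1564, 700 and 3078. The genes tested were 15808, except 27669 with no filter and 15769 within slide 2. The count of changed members was 1 with the mean of all kept probes, and 4 with trended and robust variances, with array weights and with slide as a random block. Leaving out 1 array gave 0 (without WT2 or WT5) to 4 (without KO1 or KO2). Adipor2 was called under 18 and Gsk3b under 15 of the 26 alternatives, Akt1 under 6, Eif4ebp1 under 3 and Grb14 under 2. The main count of 935 for all genes became 470 without scaling (which moved the median of all genes to 0.12, against 0.01), 247 without the filter, 38 with slide as a fixed block, 1451 with it as a random block, 2 within slide 2, 166 with the replicate block and 297 to 1191 without 1 array. The 6 other pathway genes became 10 with quantile normalisation, 1 without the filter, 10 with trended and robust variances, 14 with array weights, 1 with slide as a fixed block, 12 with it as a random block, 0 within slide 2 (5 at an unadjusted p under 0.05), 1 with the replicate block and 2 to 9 without 1 array, with 2 or 3 whenever a wild-type array or KO4 was left out. Exact permutation p-values under 0.05 were reached by 7 members, and by 5 to 8 under the 10 settings in which they were run. They were not computed over all genes, so these counts have no share to be read against. With limma, 23.7% of all genes had an unadjusted p under 0.05 in the main fit. The replicate numbers are shared by the 2 groups, but same-numbered arrays did not deviate together (correlations of -0.215 to 0.035), so the numbers were not taken to pair them. With the replicate block Adipor2 was at an adjusted p of 0.086 and Gsk3b at 0.096. The fit with slide as a random block used a negative correlation within slides (-0.0899). In it the standard error of Adipor2 was 0.108, against 0.119 in the main fit. Its larger counts therefore do not show that allowing for slide strengthened the calls.

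Some small differences changed sign. Adipor1 was -0.0943 with median scaling, -0.0084 with slide as a random block and -0.0226 to 0.0648 without 1 array. Gcgr was 0.0321 with normexp and quantile normalisation, 0.0421 with quantile normalisation alone, 0.0515 without scaling and -0.10 to 5e-04 without 1 array. Insr was 0.0526 without scaling, 0.0463 with the mean of its probes and 0.15 with its second probe. Prkag1 was -0.0163 with median scaling. The causes were not tested. Foxo3 was too dim to test.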
